A study of Mus musculus with 18 samples.

Results

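The small proline-rich protein genes (Sprr) encode short proteins that keratinocytes build into the cornified envelope, the protein shell that replaces the plasma membrane of the outermost epidermal cells. Transglutaminases cross-link them to loricrin, involucrin and other envelope proteins. In mouse skin, Sprr genes are low in undisturbed interfollicular epidermis and are known to rise in wounded, inflamed and hyperproliferative epidermis. A set of 8 was followed here, chosen by gene symbol: Sprr1a, Sprr1b, Sprr2d, Sprr2e, Sprr2f, Sprr2h, Sprr2k and Sprr3. They are 8 of the 52636 genes in the count table and 8 of its 17 Sprr rows. The choice used measured values, since Sprr1b and Sprr2e had been seen strongly higher in tumors, so the 8 genes are compared between tumors and skin as a description without a test. Tests of tumors against skin are given only for genes outside the set.

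Gene counts came from RNA-seq of epidermal cells of C57BL/6 mice. The cells were sorted as EpCAM+ CD45- CD140a- CD31-, although the source named in the labels is whole skin. In Zfp36 ΔK14 mice, Cre under a human keratin 14 promoter deletes Zfp36, which encodes the mRNA-destabilizing protein TTP, in keratinocytes and any other cells that use this promoter. The controls were Zfp36 fl/fl littermates, which carry the floxed alleles without the deletion. Mice were 8 weeks old when treatment started. Mock libraries came from mock-treated skin, treated libraries from non-tumoral skin next to papillomas after DMBA (an initiating carcinogen) and TPA (a phorbol ester that promotes tumor growth), and tumor libraries from the papillomas. Each of the 6 groups had 3 columns, but for mock ΔK14 skin the columns of replicates 2 and 3 hold the same value for each gene; these were used once, which left 17 libraries and n = 2 in that group. Nothing in the labels ties a library to an animal, so the p-values measure the spread between libraries.

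Library totals ran from 2808550 to 9617985 counts. Zfp36 was at 152 to 713 CPM (a gene's count scaled to the library's total, here after TMM scaling) in the fl/fl libraries and at 10.05 to 38.4 CPM in the ΔK14 libraries, and each ΔK14 library was below every fl/fl library of its stage. All 5 keratinocyte markers (Krt5, Krt14, Epcam, Cdh1 and Itga6) had counts in every group. Their summed level was between 2670 and 13827 CPM in skin and between 8722 and 30438 CPM in tumors. Markers of other cells were also counted: the 5 fibroblast markers summed to 375 to 1660 CPM in skin and 30.1 to 377 CPM in tumors, the 6 leukocyte markers to at most 15.1 CPM anywhere, and the 3 endothelial markers to at most 38.9 CPM. The 4 melanocyte markers fell between 34.8 and 246 CPM in skin and between 8.82 and 28.8 CPM in tumors. The 5 hair shaft and inner root sheath markers ranged from 11.7 to 1805 CPM in mock skin, from 361 to 1403 CPM in treated skin and from 15.0 to 95.1 CPM in tumors. In bulk samples, fewer expressing cells and less RNA per cell cannot be told apart.

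All 17 Sprr genes lie in a single cluster of 284.7 kb on chromosome 3 (GRCm38, 92215799 to 92500493), part of the epidermal differentiation complex. Sprr2d (92339140 to 92340873), Sprr2e (92352143 to 92353449), Sprr2f (92365187 to 92366442), Sprr2h (92385685 to 92387324) and Sprr2k (92432582 to 92433925) are on the plus strand. Sprr1b (92436809 to 92438789), Sprr3 (92456502 to 92458720) and Sprr1a (92483952 to 92485895) are on the minus strand. Each of the 8 has 2 exons, and their exons sum to between 609 bases (Sprr2f) and 1222 bases (Sprr3). The coding regions of Sprr1a and Sprr1b were 83.3% identical over the aligned bases. Among the 5 Sprr2 members the identity ran from 83.7% (Sprr2f and Sprr2k) to 94.7% (Sprr2d and Sprr2e).

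The likeness of the Sprr2 copies is visible in the first 30 coding bases, shown because reads from such stretches could belong to more than 1 gene (GENCODE M21 transcripts on GRCm38, 5′ to 3′, with capitals marking the bases that differ from Sprr2e):
Sprr2d: atgtcttaccaGcagcagcagtgcaagcag
Sprr2e: atgtcttaccaacagcagcagtgcaagcag
Sprr2f: atgtcttaccaaGaAcagcagtgcaagcaA
Sprr2h: atgtcttaccaacagcagcagtgcaagcag
Sprr2k: atgtcttaccaaGagcagcagtgTaagcag

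Sprr2e and Sprr2h were identical over this stretch, and Sprr2f differed at 3 bases. Over whole transcripts the members were more distinct. Of all 50-base windows of a member's transcript, 10.2% in Sprr2e, 4.27% in Sprr2d and 0.714% in Sprr2f also occurred in another Sprr transcript, and 0 in the other 5 members. At 100 bases the share was 1.09% in Sprr2e and 0 in the other 7. By contrast, for Sprr2a1 and Sprr2a2, which are not among the 8 genes, 96.3% and 96.5% of the 50-base windows occurred in another Sprr transcript. Of the Sprr2a1 windows 92.5% occurred in Sprr2a2, and of the Sprr2a2 windows 96.5% in Sprr2a1. Their counts differed by at most 8 in any of the 17 libraries. Counts of Sprr2e and its nearest copies are therefore less certain than those of Sprr1a, Sprr1b or Sprr3, because how reads with several matches were counted is not given in the sources used here.

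The promoters were compared because AP-1 (dimers of Fos and Jun proteins, which TPA is known to activate) has long been studied as a regulator of Sprr genes. The letters TGANTCA (N is any base) cover the core that AP-1 dimers recognize. They were searched on both strands from 250 bases before to 50 after each start (RefSeq, GRCm38.p6). They occurred in 7 of the 8 promoters, Sprr3 being the exception, against 7.81% of 32851 promoters. Promoters of related copies are not independent, so these shares are a description. The windows around each match are shown in the direction of the gene, with the core in capitals and the name followed by the distance of its first base from the start:
Sprr1a, -146: actaaagcTGAGTCAgagggtga
Sprr1a, -116: gaggagggTGAGTCAtaggtgac
Sprr1b, -111: acctaggaTGAATCAtgtctgac
Sprr2d, -193: gtgctcacTGAGTCAcaggtctc
Sprr2e, -193: gtgctcacTGAGTCAcaggtctc
Sprr2f, -197: ctgaatatTGAGTCAcagtgctc
Sprr2h, -198: atggtctcTGAGTCActgcactt
Sprr2k, -196: atgtcctcTGAGTCActgtactt
Sprr2k, -182: actgtactTGACTCAgtgactat

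The 5 Sprr2 promoters carried the core in nearly the same place, and the Sprr2d and Sprr2e windows were the same in all 23 bases. TATAAA, the letters of a TATA box, occurred in all 8 promoters, between 29 and 43 bases before the start, against 13.6% of all promoters. AGGAAG, a core recognized by Ets factors, occurred in Sprr2f, Sprr2k and Sprr3, against 35.4% of all promoters. Of 6 other Sprr genes with a promoter in the table, Sprr2b and Sprr2i held both the AP-1 and the TATA letters, and Sprr2a1, Sprr2a2, Sprr2a3 and Sprr4 held neither. No match of a motif overlapped a match of another. A match is a description of the letters and not a measured binding site.

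**Figure D1:**
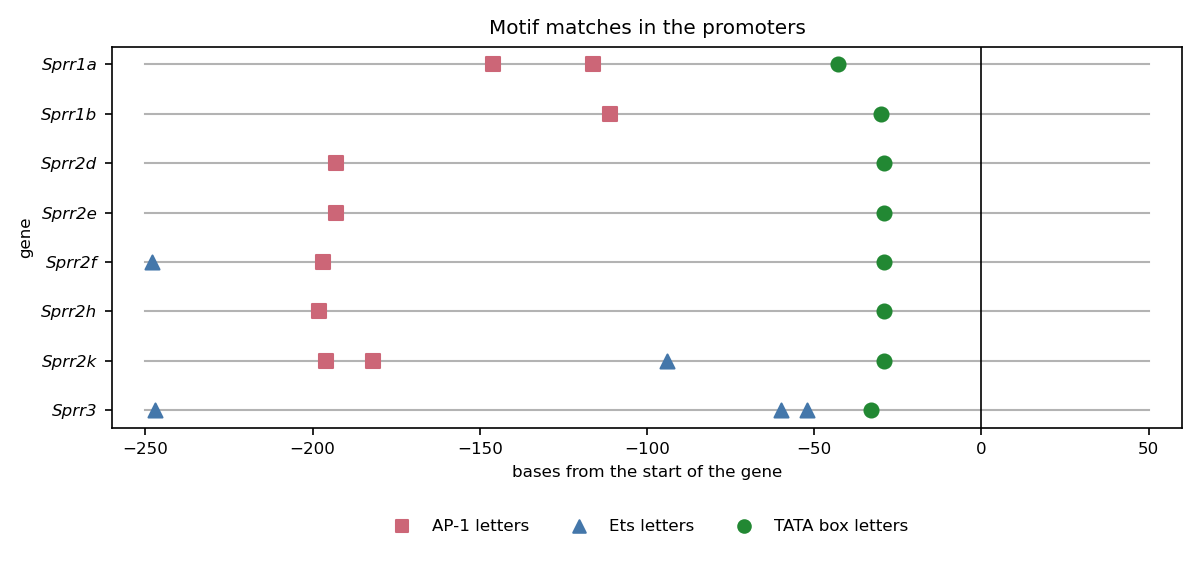
Matches to 3 motifs in the promoters of the 8 genes, by the distance in bases of the first matched base from the start of the gene; each grey line is 1 promoter. AP-1 matches sit between 182 and 198 bases before the start in the 5 Sprr2 genes and nearer to it in Sprr1a and Sprr1b, and Sprr3 has none.

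TTP binds AU-rich elements in 3′ UTRs, so these were searched too. The heptamer TATTTAT, a core of such elements, occurred in the 3′ UTR of 0 of the 8 genes, against 27.6% of 20941 genes and 8.36% of the 3792 genes with a 3′ UTR of 200 to 500 bases, the range that holds all 8. The shorter ATTTA occurred 1 time each in Sprr1a and Sprr1b and in none of the other 6, against 38.9% of genes with a 3′ UTR of that length. Outside the set, Sprr2a1, Sprr2a2 and Sprr2a3 each held 2 TATTTAT and 8 ATTTA, in 3′ UTRs of 2566 to 2568 bases (median of all genes, 961). Sprr2g held 1 ATTTA, and Sprr2b, Sprr2i and Sprr2j-ps held neither.

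In mock skin, Sprr1a supplied nearly all of the 8 genes' counts. It stood at 17.4, 19.4 and 27.5 CPM in the 3 fl/fl libraries and at 23.5 and 18.0 CPM in the 2 ΔK14 libraries. The genotypes overlapped, with a log2 fold change (ΔK14 over fl/fl) of -0.04 (SE 0.32; edgeR quasi-likelihood test, adjusted p = 0.99998 over 15920 genes, of which 0 were called higher). Sprr1a made up 94.3% to 98.0% of the summed counts of the 8 genes in these 5 libraries. Sprr1b, its nearest relative, was at 0.359 to 1.17 CPM, from 1 to 8 counts a library. Of the Sprr2 members, Sprr2d and Sprr2k each had a single count in 1 mock library, and Sprr2e, Sprr2f, Sprr2h and Sprr3 had 0 counts in all 5. A count of 0 allows up to 3 counts over the libraries of a group, and this limit covers counting error only.

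**Figure D2:**
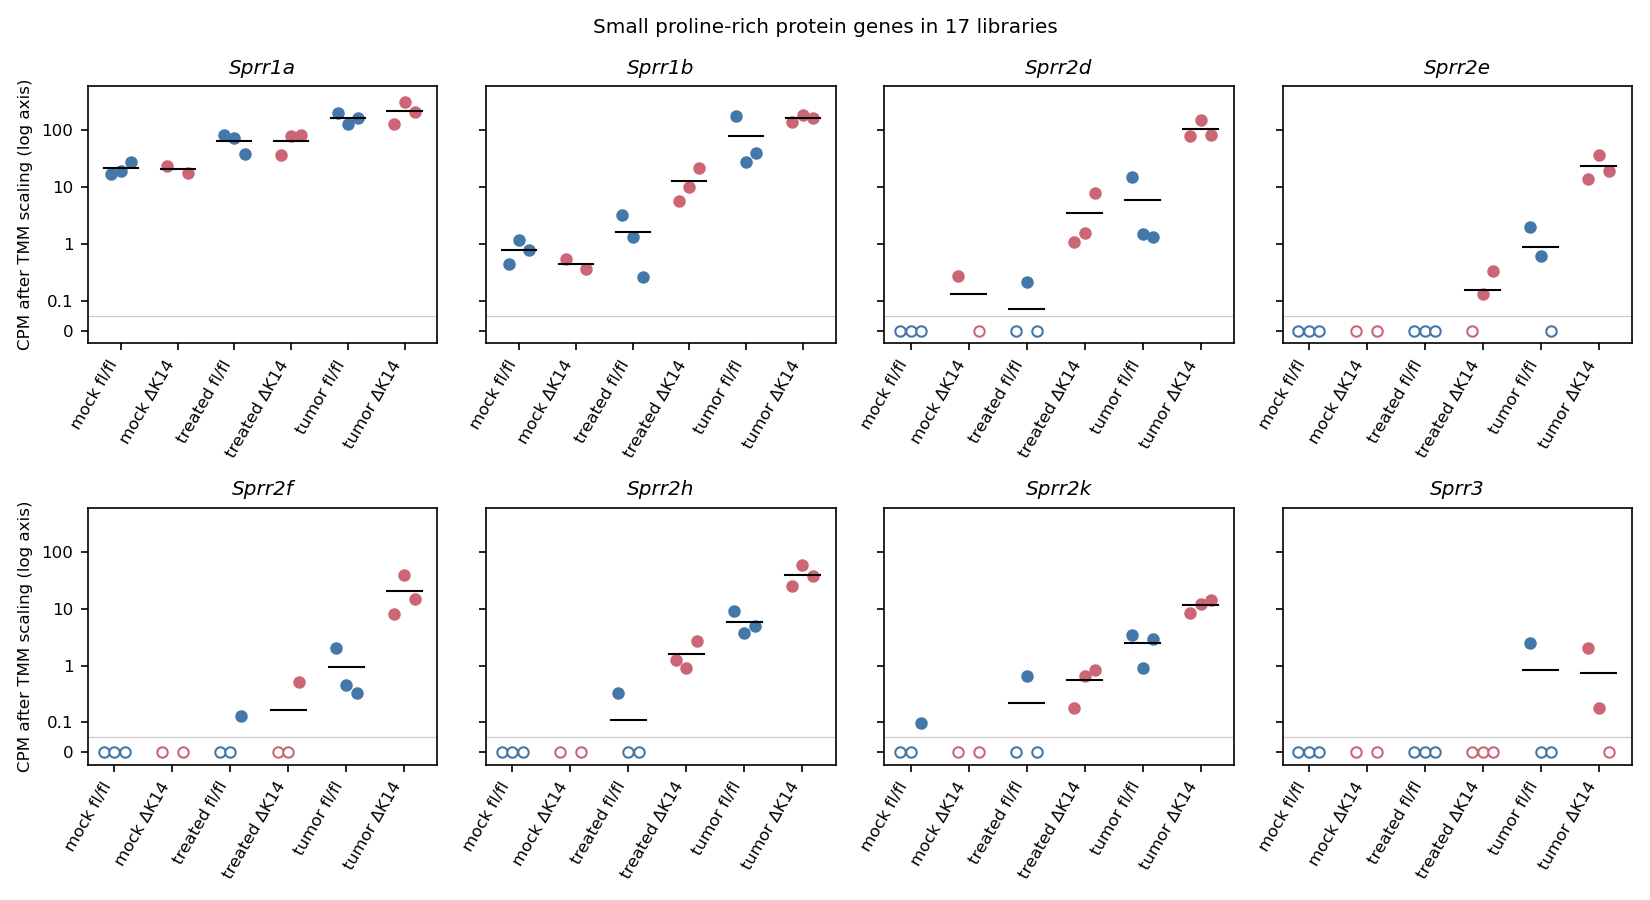
CPM (after TMM scaling, log axis) of each of the 8 genes in the 17 libraries; filled points are libraries, open points on the lowest tick are libraries with 0 counts, and bars are group means, left out where they fall near 0 (3 libraries a group, 2 in mock ΔK14). Sprr1a is seen in every library, while the Sprr2 genes are near 0 in mock skin and highest in ΔK14 tumors.

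Treated skin was compared with mock skin within each genotype to see how the carcinogen and phorbol ester regimen moved the genes outside tumors. Sprr1a was at 83.7, 71.7 and 38.0 CPM in treated fl/fl skin, above all 3 mock fl/fl libraries. Its log2 fold change was 1.61 (SE 0.34) with an adjusted p of 0.442 over 16601 genes in the edgeR quasi-likelihood test, so it was not called (a call needed a fold change over 2 and an adjusted p under 0.05). In ΔK14 skin Sprr1a went from 23.5 and 18.0 CPM to 36.1, 78.0 and 82.4 CPM, and the log2 change was 1.65 (SE 0.44; edgeR adjusted p = 0.701). The groups did not overlap in either genotype, as for 5.39% (fl/fl) and 7.78% (ΔK14) of tested genes in that direction. No gene was called in either comparison (percent called, 0), and 913 and 763 genes had an unadjusted p under 0.05 by the same test.

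For Sprr1b, fl/fl skin was at 0.442, 1.17 and 0.771 CPM after mock treatment and at 3.25, 1.31 and 0.260 CPM after DMBA and TPA, so that the groups overlapped, and its counts were too low for the test. In ΔK14 skin it went from 0.540 and 0.359 CPM to 5.72, 10.1 and 21.9 CPM, with no overlap. The log2 fold change there was 4.70 (SE 0.88), with an adjusted p of 0.701 in the edgeR quasi-likelihood test, which it entered through its counts in treated skin, since mock ΔK14 skin held 2 and 1 counts. The difference between the genotypes in this change was 3.59 on the log2 scale (SE 1.40; edgeR adjusted p = 0.99995 among 17694 genes, of which 0 were called higher), and it rests on the same low mock counts. Without treated fl/fl replicate 1 it was 4.78 and without treated ΔK14 replicate 3 it was 2.97, and neither was called. Leaving out mock fl/fl replicate 1 brought Sprr1a in fl/fl skin past the threshold, among 2587 genes called in all, against 0 with every library.

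Treated skin of the 2 genotypes was then compared directly. Sprr1a was alike in level, at a mean of 65.5 CPM ± 25.5 (SD, n = 3) in ΔK14 and 64.5 CPM ± 23.7 (SD, n = 3) in fl/fl skin, with a log2 difference of 0.00 (SE 0.37; edgeR adjusted p = 0.999). Sprr1b was higher in each ΔK14 library than in every fl/fl library, by a log2 fold change of 2.87 (SE 0.73). This moved to 4.12 without treated fl/fl replicate 1 and to 2.25 without treated ΔK14 replicate 3. Its adjusted p over 16232 genes was 0.835 in the edgeR quasi-likelihood test, so it was not called. Sprr1b entered this test through its ΔK14 counts, since the fl/fl libraries held 30, 6 and 2 counts. The percent of tested genes called higher was 0, and 5.76% were higher without overlap.

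The Sprr2 members were at the edge of detection in treated skin. Sprr2d had 6, 12 and 47 counts in the ΔK14 libraries (1.07, 1.56 and 7.92 CPM) and 0, 1 and 0 counts in the fl/fl libraries. The ratio of the pooled CPM was 72.7, with a counting interval (95%) of 12.6 to 2915. Sprr2h had 7, 7 and 16 counts in ΔK14 and 3, 0 and 0 in fl/fl, a pooled ratio of 11.2 (counting interval 3.48 to 57.3). These 2 genes did not overlap between the genotypes, but neither passed the filter on low counts, so neither was tested. The intervals cover counting error within these libraries and not the spread between them. Without the filter on low counts the edgeR test called Sprr1b, Sprr2d and Sprr2h, among 218 genes called of 33755, and DESeq2 called Sprr1b. These calls rest on the ΔK14 counts of genes with few counts in fl/fl skin and are given as a description. Sprr2k (1, 5 and 5 counts against 0, 3 and 0), Sprr2e (0, 1 and 2 against 0) and Sprr2f (0, 0 and 3 against 0, 0 and 1) overlapped, and Sprr3 had 0 counts in all 6 libraries.

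The make-up of the 8 genes' counts does not depend on how libraries are scaled, and the ranges of its shares did not overlap between the genotypes. The 5 Sprr2 members together took 0.339% to 1.18% of the 8 genes' counts in treated fl/fl skin and 3.56% to 10.5% in treated ΔK14 skin. Sprr1a took 95.9% to 99.0% and 70.7% to 85.3%, respectively. These shares are given as a description, with no test, and leave out the other Sprr genes. Of those, Sprr2a1, Sprr2a2 and Sprr2a3 held 44, 48 and 58 counts in treated fl/fl skin, where no Sprr2 member held over 3. In treated ΔK14 skin they held 124, 117 and 75 counts. Treated fl/fl replicate 2 held 23, 23 and 14 of them and treated ΔK14 replicate 1 held 6, 6 and 4. The separation of the ranges is therefore stated for the 8 genes only, not for all Sprr2 genes. The hair shaft and inner root sheath markers summed to 816 to 1403 CPM in treated fl/fl and 361 to 962 CPM in treated ΔK14 skin, and their part in the Sprr differences was not tested.

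**Figure D3:**
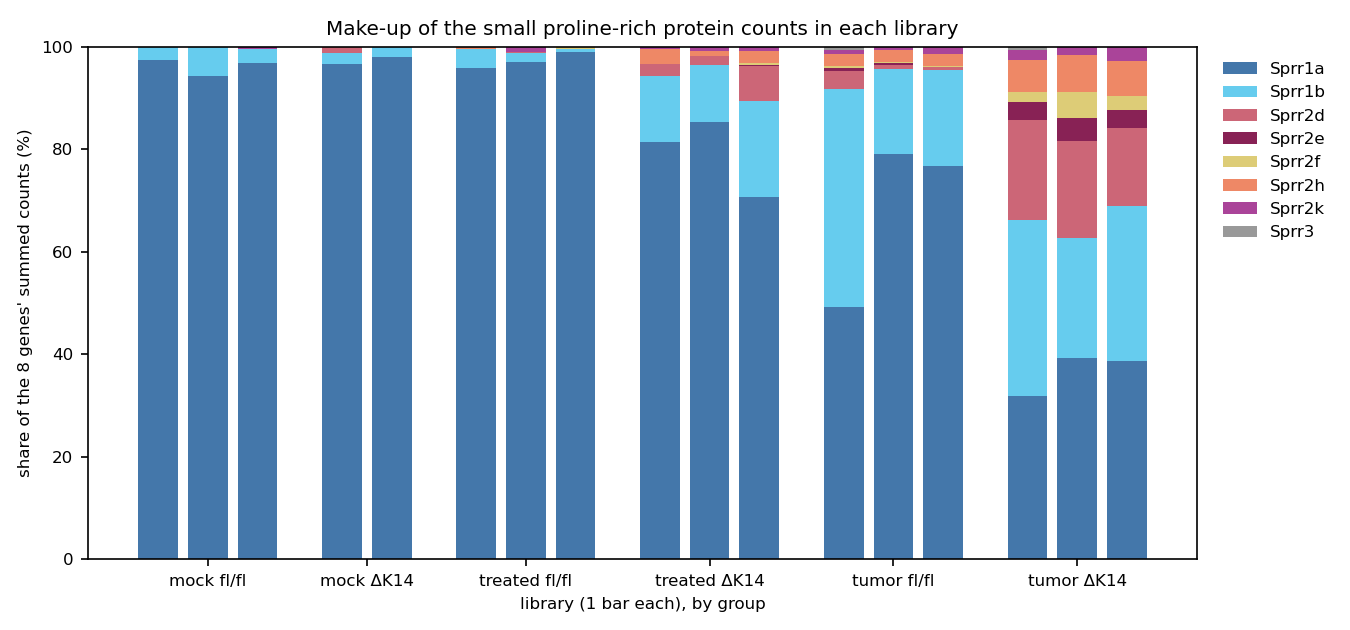
Share (%) of the summed counts of the 8 genes taken by each gene, with 1 bar for each of the 17 libraries. Other Sprr genes are left out. Sprr1a fills over 94% of each mock bar, while the 5 Sprr2 genes fill 31.0% to 37.3% of the ΔK14 tumor bars and 4.39% to 7.68% of the fl/fl tumor bars.

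In tumors all 8 genes were counted. Because tumors against skin chose the members, the values that follow carry no test. Melanocyte, hair and fibroblast marker sums were lower in every tumor than in every treated library of the same genotype, with fibroblast sums of 375 to 617 CPM in treated skin and 81.0 to 190 CPM in tumors of fl/fl mice, and of 429 to 950 CPM and 30.1 to 377 CPM in ΔK14 mice. Keratinocyte marker sums were higher, at 4478 to 8650 CPM in treated and 8722 to 30438 CPM in tumor fl/fl libraries, and at 2936 to 11357 CPM and 23674 to 24896 CPM in ΔK14 libraries. The edgeR test called 2 of 5 keratinocyte markers higher and 2 of 5 fibroblast markers lower in fl/fl tumors, and 4 higher and 1 lower in ΔK14 tumors. The part of these markers in the Sprr values was not tested. Summed over the 8 genes, the level was 17.8 to 28.3 CPM in mock skin, 38.4 to 117 CPM in treated skin, 166 to 411 CPM in fl/fl tumors and 401 to 795 CPM in ΔK14 tumors. Sprr1a was at 202, 131 and 162 CPM in fl/fl and at 128, 312 and 208 CPM in ΔK14 tumors. Its fitted log2 fold change over treated skin was 1.33 (SE 0.31) in fl/fl and 1.62 (SE 0.38) in ΔK14 mice. Every tumor library was above every treated library of its genotype, as for 21.9% (fl/fl) and 28.4% (ΔK14) of tested genes in that direction.

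Sprr1b was at 175, 27.5 and 39.8 CPM in fl/fl tumors, where replicate 1 stood well above the others. In ΔK14 tumors it was at 138, 187 and 164 CPM. The fitted log2 fold changes over treated skin were 5.50 (SE 0.96) in fl/fl and 3.60 (SE 0.41) in ΔK14 mice, and over mock skin 6.64 (SE 0.90) and 8.28 (SE 0.43). Without fl/fl tumor replicate 1, the fl/fl values were 4.25 over treated and 5.41 over mock skin. Against the 3 counts of mock ΔK14 skin, the pooled ratio in ΔK14 tumors was 356 (counting interval 122 to 1725).

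Sprr2d led the Sprr2 members. It was at 15.0, 1.52 and 1.31 CPM in fl/fl tumors and at 78.8, 150 and 81.7 CPM in ΔK14 tumors, with a fitted log2 fold change over treated ΔK14 skin of 4.81 (SE 0.63). Sprr2e, which helped to choose the set, was at 2.00, 0.609 and 0 CPM in fl/fl and at 13.8, 36.4 and 19.5 CPM in ΔK14 tumors. Since mock ΔK14 skin held 0 counts, its ΔK14 tumors were at least 51.8-fold higher, taking 3 counts over the group as the floor. On the same floor, Sprr2h was at least 88.4-fold higher, Sprr2f at least 47.0-fold and Sprr2k at least 25.5-fold. In fl/fl mice the bound was at least 40.8-fold for Sprr2h, at least 30.9-fold for Sprr2d and at least 5.62-fold for Sprr2e and Sprr2f. All these bounds take the tumor counts as exact and leave out the spread between tumors. In fl/fl tumors Sprr2e and Sprr2f held 8 counts each, and replicate 1 held 30 of the 44 counts of Sprr2d. Sprr2e had 0 counts in fl/fl tumor replicate 3, as in mock skin, so its groups overlapped.

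Sprr3, best known from the lining of the mouth and esophagus, had counts only in tumors: 5, 0 and 0 in fl/fl and 9, 1 and 0 in ΔK14 libraries. Replicate 1 held 5 of 5 in fl/fl and 9 of 10 in ΔK14 tumors. With 0 to 9 counts a library, neither its level nor a difference between genotypes was measurable at this depth.

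Per kilobase of exon, which puts genes of different length on a common scale, the order in ΔK14 tumors was Sprr1a (268 ± 115 CPM per kb, SD, n = 3), Sprr1b (196 ± 29.5), Sprr2d (152 ± 59.6), Sprr2h (52.9 ± 22.2), Sprr2e (35.9 ± 18.1), Sprr2f (34.1 ± 27.4), Sprr2k (18.2 ± 4.88) and Sprr3 (0.597 ± 0.909). The first 3 lay within their spread of one another, as did Sprr2h, Sprr2e and Sprr2f. In fl/fl tumors Sprr1a (205 ± 43.8 CPM per kb) and Sprr1b (97.3 ± 98.4) led again, and Sprr2d (8.74 ± 11.5), Sprr2h (7.85 ± 3.65) and Sprr2k (3.85 ± 2.14) followed within their spread.

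Tumors of the 2 genotypes were compared to see whether the loss of Zfp36 in keratinocytes moved the family inside papillomas. Each of the 5 Sprr2 members was higher in every ΔK14 tumor than in any fl/fl tumor, while Sprr1a and Sprr1b overlapped. Among all 14067 genes tested, 13.7% were higher without overlap, and 6.88% were higher at an unadjusted p under 0.05. In the edgeR quasi-likelihood test of 3 against 3 libraries, none of the 7 members that passed the filter was called. The percent of genes called higher was 0.0213. The 5 Sprr2 members each had an unadjusted p under 0.05 by this test. Sprr2d, Sprr2e, Sprr2f and Sprr2k were too low in fl/fl tumors for the filter and entered the test through their ΔK14 counts. Their p-values are therefore given as a description. Sprr2e and Sprr1b helped to choose the set by their tumor values, so their genotype values are not independent of the choice.

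The fitted log2 fold change of Sprr2e was 4.84 (SE 0.73), given as a description because its tumor values helped to choose the set; ΔK14 tumors held 366 counts and fl/fl tumors 8. For Sprr2f it was 4.64 (SE 0.84; edgeR adjusted p = 0.167), from 2.00, 0.457 and 0.327 CPM in fl/fl to 8.03, 39.7 and 14.6 CPM in ΔK14 tumors. For Sprr2d the log2 fold change was 4.27 (SE 0.81; edgeR adjusted p = 0.175). The spread within ΔK14 tumors was wide for these genes, with replicate 2 highest in each.

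Sprr2h was at 9.02, 3.804 and 4.90 CPM in fl/fl and at 24.8, 57.8 and 36.8 CPM in ΔK14 tumors, so that the log2 difference was 2.70 (SE 0.43; edgeR adjusted p = 0.144). Sprr2k was at 3.51, 0.913 and 2.94 CPM against 8.26, 12.1 and 14.4 CPM, and the log2 difference was 2.26 (SE 0.51; edgeR adjusted p = 0.185). Sprr1b differed by 0.91 (SE 0.60) on the log2 scale, given as a description because its tumor values helped to choose the set. Sprr1a differed by 0.25 (SE 0.32; edgeR adjusted p = 0.762). The median over all genes tested was -0.02.

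Whether these differences passed the threshold depended on fl/fl tumor replicate 1 and on the method. This library had the lowest total of all (2808550 counts) and the highest level of each of the 8 genes among fl/fl tumors. Without it, the edgeR test called Sprr1b and the 5 Sprr2 members, among 2613 genes called of 15463. With every library kept, DESeq2 and edgeR's exact test each called the 5 Sprr2 members, the edgeR test on all libraries in a single fit called Sprr2e, Sprr2f and Sprr2h, and the RLE scaling called none. Sprr1b and Sprr2e helped to choose the set by their tumor values, so their calls are given as a description. Sprr2d, Sprr2f and Sprr2k had few counts in fl/fl tumors, and their calls rest on their ΔK14 counts. Without fl/fl tumor replicate 1 the log2 fold change was 6.03 for Sprr2d, 5.65 for Sprr2e, 5.47 for Sprr2f, 3.11 for Sprr2h, 2.67 for Sprr2k and 2.18 for Sprr1b. Over the 13 alternatives it ranged from 3.66 to 6.03 for Sprr2d, from 4.34 to 5.65 for Sprr2e, from 3.74 to 5.47 for Sprr2f, from 2.33 to 3.11 for Sprr2h, from 1.72 to 2.67 for Sprr2k and from 0.50 to 2.18 for Sprr1b. The adjusted p of Sprr2h, with the smallest standard error of the 5 Sprr2 members, ranged from 2.67e-13 to 0.629.

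**Figure D4:**
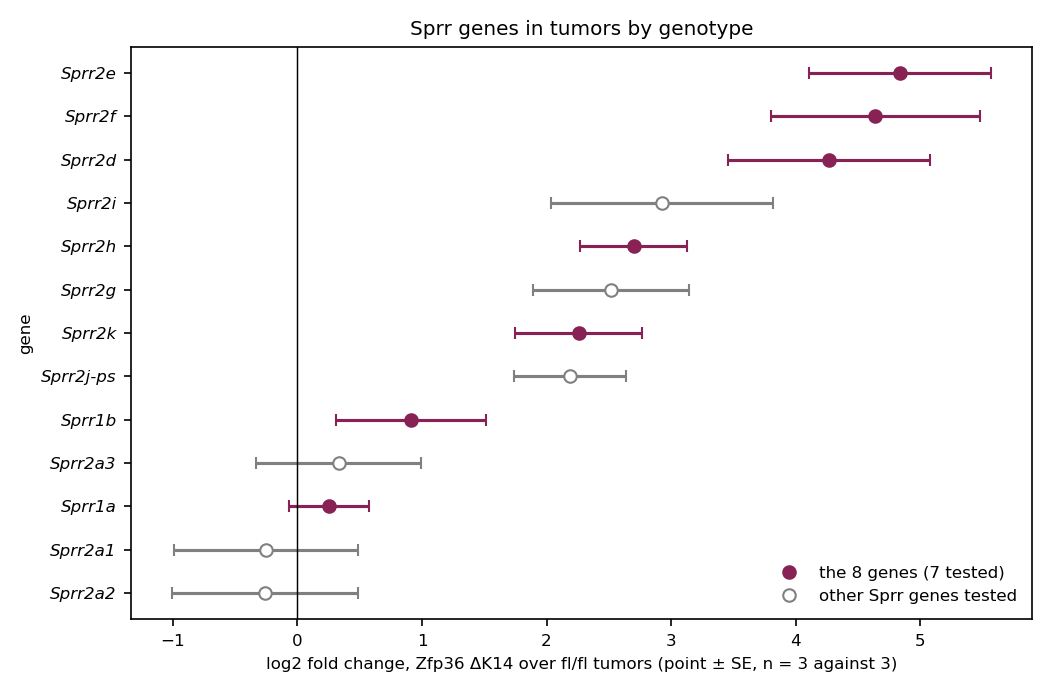
Log2 fold change of ΔK14 over fl/fl tumors (edgeR, point ± SE, 3 libraries against 3) for the 7 members tested (filled) and the 6 other Sprr genes tested (open). The 5 Sprr2 members lie between 2.26 and 4.84, Sprr1a and Sprr1b at 0.25 and 0.91, and Sprr2a1, Sprr2a2 and Sprr2a3 between -0.26 and 0.33.

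The make-up of the 8 genes' counts did not overlap between the genotypes in tumors either. The Sprr2 members took 4.39% to 7.68% of the 8 genes' counts in fl/fl tumors and 31.0% to 37.3% in ΔK14 tumors. Sprr1a, the major member in fl/fl tumors at 49.1% to 79.0%, took 31.9% to 39.2% in ΔK14 tumors. These shares leave out the other Sprr genes. Of those, Sprr2a1, Sprr2a2 and Sprr2a3 held 265, 263 and 226 counts in fl/fl tumors and 481, 479 and 576 in ΔK14 tumors. In fl/fl tumor replicate 1 they held 162, 163 and 126 counts, and Sprr2d, the highest Sprr2 member there, held 30. In ΔK14 tumor replicate 1 they held 93, 92 and 125 counts, and Sprr2d held 353. The separation is therefore stated for the 8 genes only, not for all Sprr2 genes. Fibroblast marker sums (81.0 to 190 CPM in fl/fl, 30.1 to 377 CPM in ΔK14 tumors) and leukocyte marker sums (8.16 to 9.28 CPM and 8.34 to 10.3 CPM) overlapped between the genotypes. Keratinocyte marker sums were 8722 to 30438 CPM in fl/fl and 23674 to 24896 CPM in ΔK14 tumors, and the part of this spread in the Sprr differences was not tested.

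The genotype difference itself was compared between tumors and treated skin. None of the 7 members that could be tested passed the threshold in this interaction, and none had an unadjusted p under 0.05, while 0.0118% of 17017 genes were called higher and 13.2% had an unadjusted p under 0.05. The largest estimate was that of Sprr2f, at 3.33 on the log2 scale (SE 3.31; edgeR adjusted p = 0.706). For Sprr1b, whose tumor values helped to choose the set, it was -1.87 (SE 1.04), given as a description. Treated fl/fl skin held at most 3 counts of any Sprr2 member in a library, and the standard errors of the Sprr2 members ran from 0.87 (Sprr2h) to 5.08 (Sprr2e). The test did not show whether the genotype difference was larger in tumors than in treated skin.

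Of the Sprr genes outside the set, Sprr2g (log2 fold change 2.52, SE 0.62), Sprr2i (2.93, SE 0.89) and Sprr2j-ps (2.19, SE 0.45) were higher in every ΔK14 tumor than in any fl/fl tumor, with edgeR adjusted p-values of 0.209, 0.249 and 0.182 and no call. Sprr2i and Sprr2j-ps held 10 and 20 counts in fl/fl tumors and entered the test through their 119 and 139 ΔK14 counts. Their values are therefore given as a description. Sprr2a1, Sprr2a2 and Sprr2a3 overlapped between the genotypes, at -0.25 (SE 0.74), -0.26 (SE 0.75) and 0.33 (SE 0.66). These 3 are also the copies that share most of their sequence, so their counts cannot be assigned to 1 gene with confidence. Against treated skin, 4 of 5 tested other Sprr genes were called higher in fl/fl tumors, and 5 of 7 higher and 1 lower in ΔK14 tumors (of all genes tested, 7.50% were called higher and 10.5% lower in fl/fl tumors, and 10.5% higher and 15.5% lower in ΔK14 tumors). The fl/fl calls were Sprr2g and the copies Sprr2a1, Sprr2a2 and Sprr2a3, and the last 2 were also called in ΔK14 tumors. Copies that share reads are not independent calls, so these counts are a description. Sprr2i and Sprr2j-ps, called in ΔK14 tumors, entered through their tumor counts, since treated ΔK14 skin held 4 and 2 counts. Sprr2g was called in both, at 7.33 (SE 1.07; edgeR adjusted p = 0.00438) and 6.52 (SE 0.66; edgeR adjusted p = 0.000444). It entered both tests through its tumor counts, since treated skin held 1 count in fl/fl and 13 in ΔK14 libraries, so the size of its fold change is uncertain.

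Sprr4, at the far end of the cluster, went the other way. It was at 0.391 to 1.66 CPM in mock skin, at 2.19 to 8.18 CPM in treated skin and at 0 to 6.09 CPM in fl/fl tumors, and it had 0 counts in the 3 ΔK14 tumors. Of the Sprr genes tested, it was the 1 called lower in ΔK14 tumors than in treated ΔK14 skin (edgeR adjusted p = 0.00369), a test it entered through its 105 counts in treated skin.

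The genes that share the envelope with the Sprr proteins, and the keratins that accompany them, were read from lists chosen with earlier results known. None was called between the genotypes in treated skin or in tumors. Of 13 tested envelope partners and transglutaminases, 3 were called higher and 1 lower in fl/fl tumors than in treated skin, and 4 higher and 3 lower in ΔK14 tumors, with medians of 0.02 and -0.04 beside -0.02 and -0.03 for all genes. The shares of all tested genes were 7.50% higher and 10.5% lower in fl/fl, and 10.5% higher and 15.5% lower in ΔK14 tumors. Tgm1, the transglutaminase of the upper epidermis, was higher in both, by 1.78 (SE 0.22; edgeR adjusted p = 0.00249) and 1.38 (SE 0.28; edgeR adjusted p = 0.00669). Csta1, a stefin, was higher by 4.23 (SE 1.04; edgeR adjusted p = 0.0239) and 4.18 (SE 0.31; edgeR adjusted p = 0.000173), though stefins also exist in near-identical copies. Flg, the filaggrin gene of the granular layer, was lower in ΔK14 tumors by -4.79 (SE 1.12; edgeR adjusted p = 0.0113), and Casp14 by -2.63 (SE 0.56; edgeR adjusted p = 0.00747). Of 21 late cornified envelope (Lce) genes, 0 passed the filter in tumors or treated skin.

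Of 9 keratins tested, 3 were called higher and 1 lower in fl/fl tumors than in treated skin, and 5 higher and 1 lower in ΔK14 tumors, beside the same shares of all genes (7.50% and 10.5%, then 10.5% and 15.5%). Krt6b and Krt16, keratins of stressed epidermis, rose from means of 14.02 and 72.5 CPM to 774 and 1168 CPM in fl/fl mice (edgeR adjusted p = 0.00756 and 0.00740). In ΔK14 mice they rose from 115 and 333 CPM to 1100 and 2019 CPM (edgeR adjusted p = 0.00161 and 0.00913). Krt15, a basal keratin, fell in fl/fl tumors, from 474 to 133 CPM (edgeR adjusted p = 0.0188). It does not stand for the basal keratins in general. Krt5 and Krt14 are among the 5 keratinocyte markers, of which 2 were called higher in fl/fl and 4 in ΔK14 tumors than in treated skin, and 0 lower.

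Among 21 transcription factors known to act on envelope genes, 6 were called higher and 3 lower in fl/fl tumors than in treated skin, and 7 higher and 3 lower in ΔK14 tumors. Over all genes 7.50% were higher and 10.5% lower in fl/fl and 10.5% and 15.5% in ΔK14 tumors, so the 3 lower lay near that background. Fosl1, which encodes the AP-1 subunit Fra-1, rose by 2.33 (SE 0.20; edgeR adjusted p = 0.00116) and 2.21 (SE 0.25; edgeR adjusted p = 0.000687). Ets1 rose by 2.29 (SE 0.34; edgeR adjusted p = 0.00451) and 4.24 (SE 0.51; edgeR adjusted p = 0.000905). Between the genotypes in tumors, Fos and Fosb, the most abundant of the list, differed by 0.02 (SE 0.39) and -0.30 (SE 0.26), with edgeR adjusted p-values of 0.986 and 0.634. Ets1 was at a mean of 218 CPM in ΔK14 and 45.6 CPM in fl/fl tumors (log2 fold change 2.13, SE 0.46; edgeR adjusted p = 0.183) and was not called. Ets1 was picked for this comparison after its values were seen.

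Among 3 tested genes that are annotated between the Sprr genes, none was called between the genotypes in tumors, and Gm5850 was lower in ΔK14 tumors at -0.69 (SE 0.25; edgeR adjusted p = 0.300). Against treated skin, 3 of 3 were called higher in fl/fl tumors and 1 of 3 in ΔK14 tumors, beside 7.50% and 10.5% of all genes tested. Gm5850 and Gm5851 had nearly the same means in each comparison (24.1 and 24.1 CPM in ΔK14 tumors, 35.5 and 35.5 CPM in fl/fl tumors), and whether they share reads was not tested.

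The genes whose pattern was most like the mean log2 CPM of 7 members (Sprr3 left out for low counts) were Gm5416, Mapk6, Ccdc71l, Procr and Sprr2g, out of 18245 genes compared. Their Pearson correlations over the 17 libraries were 0.974, 0.973, 0.971, 0.970 and 0.969. Tumor and skin libraries form separate clusters and share the scaling, so these values describe the ranking and carry no p. Within the 6 tumor libraries the correlations of these genes ran from 0.957 (Procr) to 0.990 (Sprr2g), and within the 11 skin libraries from 0.708 (Sprr2g) to 0.921 (Gm5416).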

How the data were processed

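The authors deposited 1 table of read counts per gene for all samples (raw counts, not normalized), with 52636 genes in 18 columns. Per the labels, libraries were made with the Ovation SoLo RNA-Seq system, and the submitters' processing notes name mm10, Trimmomatic 0.36, STAR 2.5.3, HTSeq 0.9.1 and DESeq2. Strand, reads with several matches and the annotation release are not given in the sources used here. Other deposited files hold the authors' own fold changes and p-values and were not used.

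Genes were matched by symbol, and 52489 of 52636 identifiers were found in GENCODE M21 (GRCm38). Only the groups compared entered each fit. Counts were filtered with filterByExpr, scaled by TMM and tested two-sided with glmQLFit and glmQLFTest (edgeR 4.0.16, R 4.3.3), with Benjamini-Hochberg adjustment over all genes tested. Genes were called at a fold change over 2 with an adjusted p under 0.05. The fits were tested on simulated data with 4-fold and 8-fold changes. False calls were 19 of 182 between genotypes in tumors, 19 of 183 in treated skin and 8 of 108 in the interaction of tumors and treated skin. Of the 4-fold changes, 76.3%, 79.1% and 33.7% were found, respectively, and of the 8-fold changes 95.7%, 97.9% and 70.1%. CPM are after TMM scaling of all 17 libraries. Likeness used a prior count of 2. Pooled ratios carry exact counting intervals (95%), with a floor of 3 counts over a group. Alternatives were DESeq2 1.42.0, edgeR's exact test, RLE scaling, a single fit, no filter, a mean count of at least 10, a replicate block and leaving out each library.

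Members and gene lists were chosen with earlier results of these data known. All 8 members were named. Of each list, up to 4 calls with the smallest p were eligible, or, without calls, the 2 genes with the largest mean CPM. Identical columns were found by comparing every pair within a group. Other pairs were equal in at most 2.17% of genes, leaving out genes with few counts in the pair.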

Additional observations from a re-analysis of the deposited data

How the results depend on the processing

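Of the 5 Sprr2 members, none changed direction between genotypes in tumors under the 13 alternatives tried. The number of members called between genotypes in tumors was 0, against 5 with DESeq2, 3 in a single fit of all libraries, 6 without the filter on low counts, 5 with edgeR's exact test and 0 to 6 when 1 library was left out. Each count above 0 includes Sprr2e, and each count of 6 also Sprr1b, whose tumor values helped to choose the set. Over all genes, 4 were called between genotypes in tumors, against 368 with DESeq2, 368 with the exact test, 122 in the single fit and 1393 without the filter. In treated skin the number of members called between genotypes was 0, against 1 with DESeq2, 3 without the filter, and 0 throughout when 1 library was left out. For treated against mock skin it was 0, against 1 (fl/fl) and 1 (ΔK14) with DESeq2, 1 and 1 with the exact test, 3 without the filter in ΔK14, and 0 to 1 in fl/fl with 1 library left out. The interaction of tumors and treated skin gave 1 call without the filter. A single fit of all libraries raised the members fitted at a log2 fold change over 1 in fl/fl tumors from 3 to 7 against mock and treated skin, as more members passed its filter. Leaving out 1 library gave 3 to 5 against mock skin. Elsewhere the cause was not tested.

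Same-numbered libraries did not deviate together throughout (correlations from -0.546 to 0.782), and a correlation over 0.1 in every one of at least 3 pairs was not met, so the numbers were not read as pairs. With the replicate block 0 members were called between genotypes in tumors and in treated skin, and the count of all genes called rose from 0 to 110 between genotypes in mock skin, where the 2 same-numbered pairs correlated at 0.782 and 0.569, and from 0 to 43 in treated against mock ΔK14 skin. The block turned the sign of the uncalled Sprr1a values: between genotypes the log2 difference was 0.15 in mock skin (-0.04 without the block) and -0.0042 in treated skin (0.0045), and the interaction of treated and mock skin was -0.025 (0.046). Leaving out 1 library turned the sign of other uncalled values. For Sprr1a the genotype difference ranged over -0.24 to 0.17 (mock), -0.26 to 0.29 (treated) and -0.091 to 0.54 (tumors), and the interaction over -0.046 to 0.58 (tumors) and -0.22 to 0.34 (mock). In the interaction with tumors, Sprr2d ranged over -2.99 to 0.42, Sprr2h over -3.36 to 0.012 and Sprr2k over -2.45 to 1.26. Depth limited the Sprr2 members in skin and Sprr3 throughout.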
